A study of Mus musculus with 3 samples.

Results

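Horizontal cells are the inhibitory interneurons of the outer retina, which contact photoreceptor terminals and are marked by the transcription factors Lhx1, Onecut1 and Onecut2. The low-UMI horizontal barcodes described here are the droplets that carried these markers but little RNA: at least 1000 detected genes, at most 4000 unique molecular identifiers (UMIs, each a count of 1 captured RNA molecule), at most 10% of UMIs from the mitochondrial genome, and a UMI of at least 2 of the 3 marker genes. They were thus selected on measured values, namely UMI and gene totals, mitochondrial share and the 3 marker genes, and none of these is a finding about them. The gate selected 889 of the 20048 deposited barcodes, 625 at postnatal day 6 (P6), 134 at day 8 (P8) and 130 at day 11 (P11). At P6 they made up 6.32% of the barcodes, with an exact Clopper-Pearson 95% interval of 5.84 to 6.81%. The share was 2.89% in the P8 library (2.43 to 3.41%) and 2.36% in the P11 library (1.97 to 2.79%). These intervals cover counting error only. In each library they were compared with barcodes that passed the same gate but held more than 8000 UMIs, which numbered 5081, 2921 and 4514 and are called high-UMI barcodes below.

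The series concerns ankyrins in synapse development of the mouse outer retina and holds 3 single-cell libraries, 1 each at P6, P8 and P11. The retinas came from mice with the genotype Cx57icre;Ai14, and neither a wild-type nor an ankyrin-deficient group was among the samples used here. The Cx57icre transgene drives recombination in horizontal cells, and Ai14 is a tdTomato reporter by which the cells were sorted after papain dissociation. With 1 library per age, age cannot be told apart from library, animal and sort, and the labels do not say how many animals were pooled. The 3 libraries served as blocks for the comparison of low with high UMI totals.

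A droplet can hold an intact cell, a cell that has lost part of its cytoplasm, or a bare nucleus, and the classes of RNA it carries differ accordingly. Nuclei hold unspliced transcripts of long genes and nuclear noncoding RNAs such as Malat1, a component of nuclear speckles. The cytoplasm holds most mature mRNA of short, highly expressed genes, such as those for ribosomal proteins, and the mitochondria hold the transcripts of their own genome. This is background, and which of these objects a given barcode captured was not tested.

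The members had median totals of 2761 UMIs and 1556 genes at P6, 2478.5 UMIs and 1431 genes at P8, and 2614.5 UMIs and 1437.5 genes at P11. The high-UMI barcodes had medians of 13806, 21068 and 22404 UMIs. Summed over the members, the comparison rested on 1738905 UMIs in the P6 library, 342629 in P8 and 341564 in P11, and the smaller sums carry the wider counting errors. No member barcode sequence was shared between libraries. The 59 P6 members within 200 UMIs below the limit had a median of 18.4% of UMIs from genes of at least 100 kb, and the 54 barcodes within 200 UMIs above it had 18.3%. At P11 the same pair of values was 34.5% (9 members) and 31.4% (16 barcodes).

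The label was checked against 9 measured horizontal cell markers that the gate did not use, among them Calb1 (a calcium-binding protein), Slc4a3 (an anion exchanger) and Mgarp (a mitochondrial protein). Their summed level was 4812 counts per 1000000 UMIs (CPM) in the members at P6, 7866 CPM at P8 and 13465 CPM at P11. In the high-UMI barcodes it was 5625, 9845 and 17308 CPM, so the members held less of these markers in each library. Barcodes of at most 4000 UMIs that passed the other limits but held 0 or 1 gate marker had 2814, 3011 and 7172 CPM of the same markers, and much more rod RNA (1434, 12291 and 10078 CPM over 12 rod markers).

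Rod markers summed to 92.0 CPM in the members at P6, 974.8 CPM at P8 and 439 CPM at P11, against 9.67, 7.62 and 8.47 CPM in the high-UMI barcodes. This RNA sat in few members. At P8, 4 of 134 members with 5 or more rod UMIs held 97.0% of it, at P11 2 of 130 held 88.0%, and at P6 4 of 625 held 69.4%. Bipolar markers reached 396, 225 and 179 CPM against 123, 51.4 and 53.6 CPM, with Gng13 at 0 in all 3 libraries. Microglia markers reached 58.1, 43.8 and 64.4 CPM against 10.0, 4.86 and 4.18 CPM. P2ry12 gave 92, 12 and 21 of the 101, 15 and 22 microglia UMIs, and the defining markers C1qc, Tyrobp and Csf1r were at 0. Markers of Müller glia were lower in the members in each library (178, 166 and 223 CPM against 214, 203 and 300 CPM), and those of cones were at 5.18, 5.84 and 0 CPM. Amacrine markers were at 5706.5, 7696 and 3153 CPM against 7244, 9793 and 4965 CPM. Ganglion cell markers were at 1089, 978 and 468 CPM against 2061, 2301 and 1391 CPM. These 2 lists hold Npy, Nefl and Sncg, which are also horizontal cell genes, so they do not tell the types apart. A share of members held a UMI of any of 75 markers of other cell types that stayed under 2 CPM in the high-UMI barcodes: 98 of 625 (15.7%), 24 of 134 (17.9%) and 19 of 130 (14.6%). Among the high-UMI barcodes, which are several times deeper, the shares were 19.4%, 16.4% and 21.0%. Free RNA in the droplets was not estimated, and its part in these UMIs and shares was not tested. Leaving out the members with such a UMI ended the calls of several named genes, given with their lists below.

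Malat1, a nuclear long noncoding RNA transcribed from chr19:5795690-5802672 (mm10, minus strand), took up more of the members' RNA in each library. It was 3.71% of summed UMIs in the members at P6, 6.46% at P8 and 9.57% at P11, against 2.04%, 1.46% and 2.10% in the high-UMI barcodes. These 3 summed shares a side did not overlap, and the ratio was 1.82 at P6, 4.42 at P8 and 4.56 at P11. Single barcodes of the 2 sides did overlap. The members' 5th percentile was 0.292%, 0.303% and 0.312%, and their 25th percentile 1.30%, 1.38% and 5.71%. The 75th percentile of high-UMI barcodes was 2.58%, 2.22% and 3.02%. In the fit across all genes Malat1 was higher by 1.40 on the log2 scale (SE 0.33, edgeR quasi-likelihood test with library as block, Benjamini-Hochberg adjusted p = 0.000157). The call was lost without P11 (adjusted p = 0.292) and without P8 (0.225), it stood without P6, and DESeq2 gave an adjusted p of 0.142.

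All long noncoding RNAs together made up 7.24% of the members' UMIs at P6, 10.3% at P8 and 12.8% at P11, against 4.07%, 3.49% and 3.84%. Without Malat1 the shares were 3.53%, 3.80% and 3.26% against 2.03%, 2.03% and 1.74%. The remaining noncoding RNA thus differed by nearly the same ratio in each library (1.74, 1.87 and 1.87), unlike Malat1, whose share differed least at P6.

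Genes with a genomic span of at least 100 kb, from the first to the last annotated base with introns, gave 34.2% of the members' UMIs at P6, 26.2% at P8 and 32.6% at P11. In the high-UMI barcodes they gave 21.2%, 12.1% and 17.1%. Ribosomal protein mRNAs went the other way, with 2.86%, 2.70% and 1.5% in the members against 4.68%, 5.58% and 3.85%. Nuclear genes for the respiratory chain and ATP synthase gave 2.23%, 2.87% and 1.67% against 3.47%, 5.48% and 4.20%. For each of these classes the 3 libraries moved in 1 direction, though the exact sign-flip permutation test over 3 pairs cannot go below a two-sided p of 0.25.

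Thinning at random keeps the expected share of each RNA class, so only passing the gate again could move the shares of high-UMI barcodes. The shares after thinning were thus no test of the effect of depth. When each high-UMI barcode was thinned at random to the UMI total of a member of its library and passed through the same gate, 93.35%, 88.05% and 90.41% still passed, and Malat1 stood at 1.999%, 1.47% and 2.05%. The long-gene share of these thinned barcodes was 20.9%, 12.2% and 17.0%.

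Mitochondrial transcripts were bounded by the gate, so their share describes the selection. It was 2.70% in the members at P6, 2.85% at P8 and 1.996% at P11, against 3.33%, 3.39% and 4.58% in the high-UMI barcodes. With no mitochondrial limit the low-UMI group grew to 965, 188 and 142 barcodes and its share became 7.69%, 7.87% and 3.71%, above the high-UMI value at P6 (3.33%) and P8 (3.42%) and below it at P11 (4.62%). Of the 13 mitochondrial mRNAs, mt-Nd6, encoded on the opposite strand from the other 12, had 24.1, 58.4 and 35.1 CPM in the members against 11.4, 13.6 and 16.1 CPM. The other 12 had negative fitted values, from -1.27 for mt-Cytb to -0.07 for mt-Atp8 on the log2 scale.

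**Figure D1:**
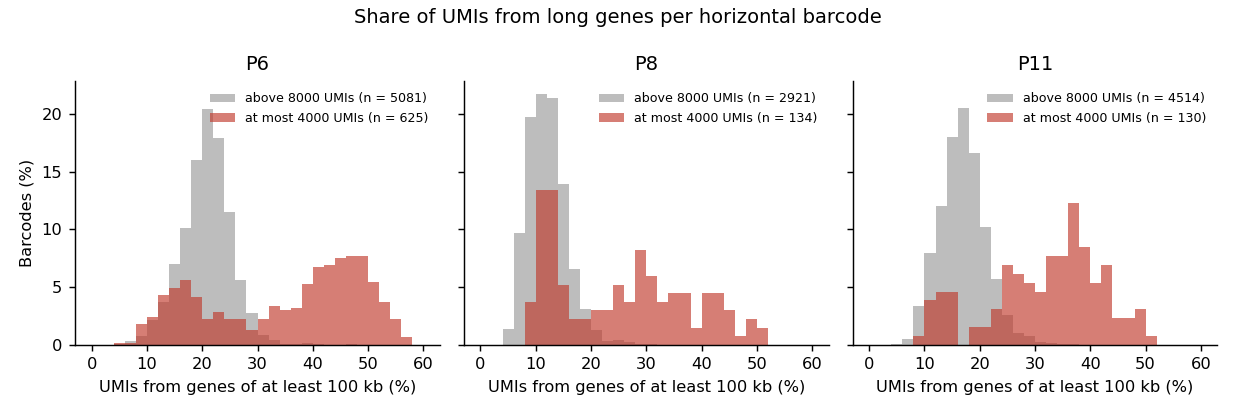
Histograms of the share of each barcode's UMIs that came from genes of at least 100 kb (x axis, percent), as percent of barcodes (y axis), for members (red) and high-UMI barcodes (grey) of each library. A share of at least 30%, a line drawn after the values were seen, was reached by 65.6% (P6), 36.6% (P8) and 61.5% (P11) of members.

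The members were not uniform. The long-gene share of single members ran from 5.78 to 58.0% at P6 (median 39.8%), from 8.23 to 51.9% at P8 (median 24.9%) and from 8.05 to 51.1% at P11 (median 33.8%). A share of at least 30% was found in 410 of 625 members at P6, 49 of 134 at P8 and 80 of 130 at P11. Among high-UMI barcodes 1.59%, 0.0342% and 0.554% reached it. The remaining members lay under 30% by definition. Among the high-UMI barcodes the 95th percentile of this share was 27.7%, 18.2% and 24.0%, and the highest value 46.8%, 31.8% and 40.0%. The 30% line was drawn after the values were seen. Between 28 and 32% lay 22, 19 and 13 members (3.52%, 14.2% and 10%), so no gap marks the line at P8 and P11.

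The members above and below that line also differed in classes of RNA that the line did not use, although all shares come from the same UMIs. At P6 those above it had a median of 4.69% Malat1, 1.004% mitochondrial and 1.29% ribosomal protein UMIs, and those below it 0.880%, 3.54% and 5.21%. At P8 the medians were 8.40%, 0.792% and 1.43% above the line and 2.19%, 3.51% and 3.89% below it. At P11 they were 11.5%, 1.04% and 0.920% above and 8.18%, 2.77% and 2.20% below. The members above the line had fewer UMIs at P6 (median 2507.5 against 3256) and more at P8 (2571 against 2305) and P11 (2737 against 2284.5). Rod marker RNA lay mainly below the line, at 186, 1568 and 1184 CPM against 33.6, 37.7 and 36.1 CPM above it. As given above, few members held most of this rod RNA. Microglia markers were higher above the line, at 84.8, 105.5 and 85.7 CPM against 15.01, 4.76 and 25.01 CPM below it. Bipolar markers were higher above it at P6 (530.5 against 180.1 CPM) and P11 (212.1 against 116.7 CPM), but not at P8 (218.5 against 228.7 CPM). The microglia list holds P2ry12 and the bipolar list Lrtm1, which lie inside longer genes described below. Horizontal cell markers outside the gate stood at 4735, 6825 and 11818 CPM above the line and 4936, 8524 and 16506 CPM below it.

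**Figure D2:**
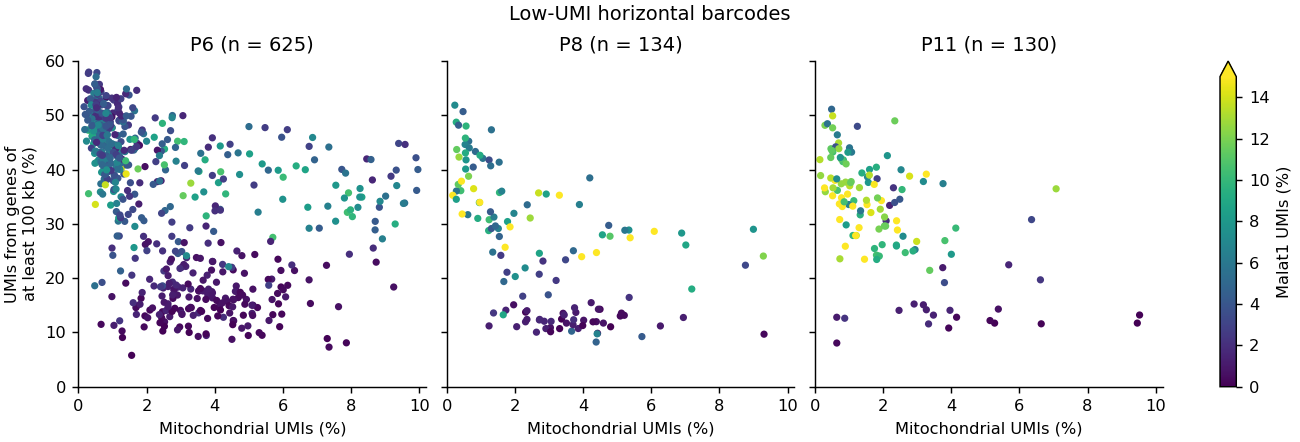
Each point is 1 member, placed by its mitochondrial share of UMIs (x axis, percent) and its share of UMIs from genes of at least 100 kb (y axis, percent), coloured by its Malat1 share (percent, capped at 15 in the colour scale). Most members with under 1% mitochondrial UMIs sit high on the y axis, with summed long-gene shares of 46.6% (P6), 40.3% (P8) and 37.8% (P11).

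A low mitochondrial share went with more long-gene RNA among the members. The 210 P6 members with under 1% mitochondrial UMIs had 46.6% long-gene and 5.01% Malat1 UMIs in sum, the 203 with 1 to 3% had 32.04% and 3.38%, and the 212 with 3 to 10% had 25.1% and 2.86%. At P8 the long-gene share over the same ranges was 40.3% (30 members), 25.4% (49) and 18.5% (55), and at P11 it was 37.8% (44), 33.0% (60) and 21.6% (26). Spearman's rank correlation between the mitochondrial and long-gene shares was -0.65 over 625 members, -0.66 over 134 and -0.61 over 130, given as a description, since both shares come from the same UMIs and members of a library are not replicates. Among high-UMI barcodes the few with under 1% mitochondrial UMIs had less long-gene RNA than the rest, 11.8% at P6 (27 barcodes) and 7.26% at P8 (35 barcodes).

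**Figure D3:**
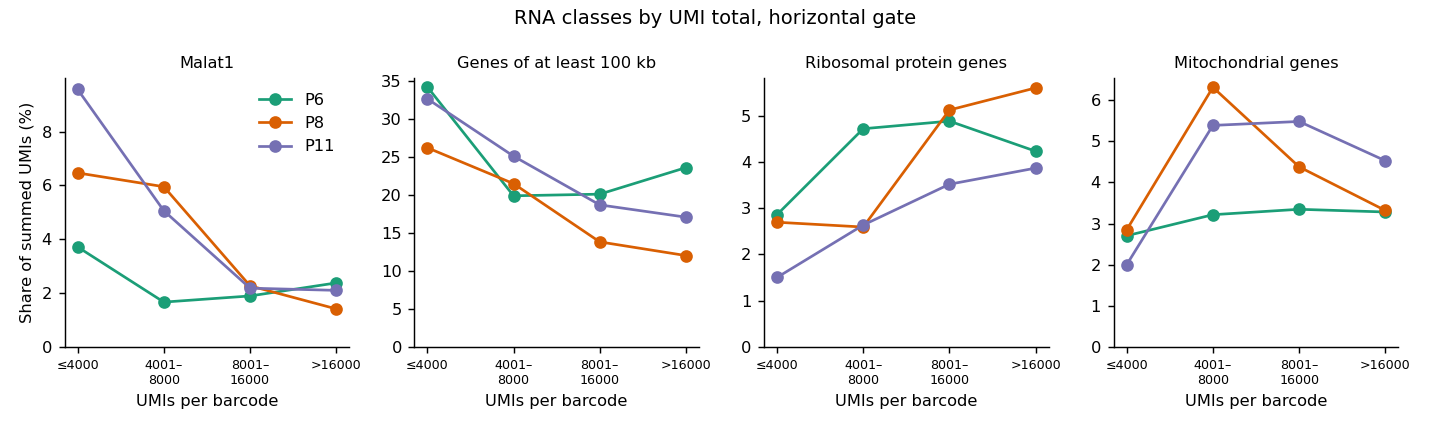
Share of summed UMIs (y axes, percent, starting at 0) from Malat1, genes of at least 100 kb, ribosomal protein genes and mitochondrial genes in barcodes of the horizontal gate, by UMIs per barcode (x axes) and library. At P6 barcodes of over 4000 and up to 8000 UMIs had 1.66% Malat1, below the 2.04% of high-UMI barcodes, while those at P8 and P11 still had 5.95% and 5.05%.

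Barcodes between the compared ranges, with over 4000 and up to 8000 UMIs, differed between libraries. At P6 the 1439 such barcodes had 1.66% Malat1, 19.8% long-gene and 4.73% ribosomal protein UMIs, near the high-UMI values. The 98 at P8 had 5.95%, 21.4% and 2.59%, and the 113 at P11 had 5.05%, 25.1% and 2.64%, between the members and the high-UMI barcodes for Malat1 and long genes. Their mitochondrial share was 3.22%, 6.32% and 5.39%.

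Gene by gene, edgeR's quasi-likelihood test on the 6 summed profiles (2 sides in 3 libraries, library as block) called 2329 of 14459 genes higher in the members, or 16.1%, and 3560 lower, or 24.6%, at an adjusted p under 0.05. The median log2 fold change of all genes tested was -0.12, which shows how the composition scaling placed its zero. Scaling by median-of-ratios moved it to 0.05 and scaling by total UMIs to 0.17. Of the called genes 39.5% were higher with the main scaling, 51.4% with median-of-ratios and 60.5% with total UMIs, so the balance of higher and lower calls depends on the scaling. Comparing with the thinned high-UMI barcodes gave 50.7%. The medians of the gene lists below kept their sign under each scaling, apart from the ankyrin list, while the median of all protein-coding genes turned positive with total UMIs. Without members holding UMIs of the 75 markers, 2244 genes were higher and 2859 lower. The 3 libraries came from different ages, and the p-values rest on the summed counts and on a spread that edgeR estimates partly from other genes. UMIs held by few members count in them like UMIs spread over many. They thus do not measure how alike the libraries were. The rod gene Sag had log2 ratios of 2.28, 6.87 and 4.40 at P6, P8 and P11 and an edgeR adjusted p of 2.98e-53.

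Fold change followed gene span. Among genes of at least 20 CPM on the higher side, the fifth with the shortest spans (median 5.16 kb) had a median log2 fold change of -1.05, and the next groups had -0.69 (15.4 kb), -0.32 (31.3 kb), 0.04 (62.4 kb) and 0.56 (171 kb). In the shortest group 4.04% of genes were called higher and 82.9% lower, and in the longest 56.4% higher and 5.56% lower. Over all 14459 genes tested the range was -0.73 to 0.55. Grouping by exon length instead gave -1.01 in the shortest and 0.37 in the longest group of genes of at least 20 CPM. The order from short to long was the same in each library.

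**Figure D4:**
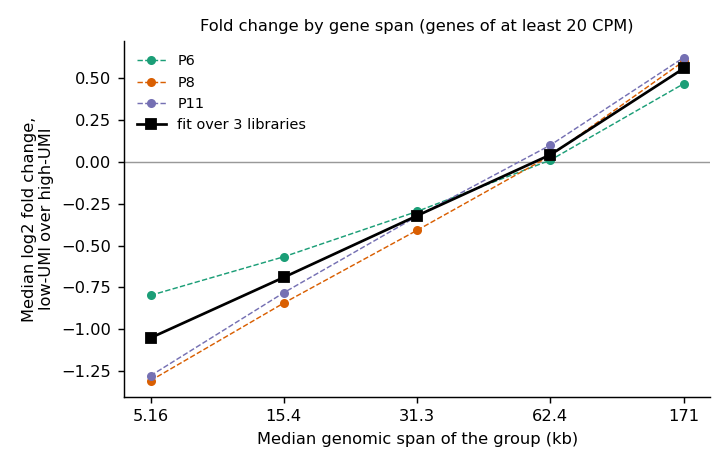
Median log2 fold change of members over high-UMI barcodes (y axis) in 5 equal groups of genes by genomic span (x axis, median span in kb), for genes of at least 20 CPM on the higher side; coloured lines are libraries and black squares the fit over all 3. The fitted medians climb from -1.05 in the shortest group to 0.56 in the longest.

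Among genes of at least 20 CPM on the higher side, noncoding genes stood above protein-coding genes of like span. A gene passes this filter through the side where it is higher, so scarce noncoding genes can enter by being high in the members. The noncoding gene Airn, for one, entered with a mean of 37.3 CPM in the members against 10.9 CPM. The contrast thus describes the genes that passed and is no test of a difference between noncoding and coding genes. Of 258 long noncoding RNA genes of at least 20 CPM, 165 were higher and 42 lower, with a median log2 fold change of 0.97, against 1352 higher and 3093 lower of 7297 protein-coding genes, with a median of -0.33. Over all 1941 long noncoding RNA genes tested, 514 were higher and 84 lower, with a median of 0.63, and the median in the P8 library alone was -0.09 with a prior count of 2. With no filter on low counts the fitted median was -0.59. Among the genes of at least 20 CPM, below 10 kb the medians were -0.15 (83 noncoding) and -1.07 (1462 coding), between 10 and 30 kb 0.98 and -0.64, between 30 and 100 kb 1.19 and -0.05, and from 100 kb 1.13 and 0.56.

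Of the list of nuclear-retained transcripts, 20 were tested, 14 were higher and 1 was lower, with a median of 1.22. The 70% higher compares with 16.1% of all genes tested, 26.5% of long noncoding RNA genes tested and 64.0% of those of at least 20 CPM. The list holds the protein-coding gene Nktr, and the annotation types Snhg11 as protein-coding. Snhg11, the next most abundant after Malat1 at P8 and P11, had 2726, 4276 and 6359 CPM in the members at P6, P8 and P11 against 1346, 1160 and 1810 CPM (log2 fold change 1.23, SE 0.24, edgeR adjusted p = 1.7e-06). Kcnq1ot1, which silences imprinted genes in cis, had 249, 157.6 and 225 CPM against 122, 44.1 and 75.8 CPM (1.11, SE 0.18, edgeR adjusted p = 1.99e-08). Meg3, an imprinted noncoding RNA, had 5088, 2230 and 2052 CPM against 2988, 995 and 997 CPM. Its log2 fold change of 0.65 had an edgeR adjusted p of 0.0131, and of 0.240 without P11 and 0.268 without P8. Besides Malat1 and Meg3, the edgeR calls of Rian (adjusted p = 0.0713 without P11 and 0.0748 without P8), Jpx (0.229 without P6) and Rmst (0.140 without P6) were lost. Peg13 was the 1 member of the list that was lower (16.1, 14.6 and 2.93 CPM against 33.8, 27.1 and 32.7 CPM). Neat1, the scaffold of paraspeckles, had 5, 1 and 1 UMIs in the members, too few for a comparison.

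Small genes of protein synthesis and energy metabolism were lower as groups, as were short genes in general. Over all genes tested 24.6% were lower. Of protein-coding genes of at least 20 CPM, 85.3% under 10 kb were lower (median -1.07), and 58.2% of 10 to 30 kb (median -0.64). The lists below had median spans of 3.27 kb (ribosomal), 7.28 kb (oxidative phosphorylation), 20.4 kb (glycolysis) and 10.6 kb (neurite growth). Whether they differ from other genes of like span was not tested. All 82 tested cytosolic ribosomal protein genes were lower, with a median log2 fold change of -1.34, as were 79 of 81 nuclear genes of oxidative phosphorylation (median -1.28). Rplp0, of the ribosomal stalk, had 507, 336 and 205 CPM in the members against 894, 993 and 609 CPM. Of 18 glycolysis genes 14 were lower and 1, Pfkp, was higher, with a median of -1.14. Gapdh had 857, 1027 and 1183 CPM against 1806, 3055 and 4028 CPM (log2 fold change -1.80, SE 0.24, edgeR adjusted p = 2.86e-12). Neurite growth and cytoskeleton genes were lower in 27 of 31 cases (median -1.19). Cfl1, the actin-severing protein cofilin, had 678, 467 and 407 CPM against 1349, 1356 and 1510 CPM, whereas Map2, a dendritic microtubule protein with a span of 267 kb, had 481, 420 and 495 CPM against 387, 269 and 275 CPM and did not pass the test (edgeR adjusted p = 0.295).

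Genes of the synaptic surface went the other way. Of 51 synaptic adhesion and guidance genes 39 were higher and 3 lower (median 0.98), and of 46 ion channel and neurotransmitter receptor genes 33 were higher and 0 lower (median 0.95; also 0 lower at an unadjusted p under 0.05 in edgeR and with DESeq2). Most of these genes are long: the adhesion list had a median span of 573 kb, and 56.6% of the 1379 protein-coding genes of at least 100 kb and 20 CPM were higher. Without the members holding UMIs of the 75 markers, Dscaml1 turned from a log2 fold change of 4.25 to -0.13 (edgeR adjusted p = 0.969). In that setting Dscam, also higher (1.45, edgeR adjusted p = 0.166), and Pcdh17, 1 of the 3 lower (-0.46, edgeR adjusted p = 0.0681), did not pass, and Pcdh17 also did not pass when any 1 library was left out (0.0733 to 0.120). Tenm2, an adhesion protein of the teneurin family, had 151, 29.2 and 120 CPM against 28.1, 8.30 and 9.66 CPM (log2 fold change 2.41, SE 0.20, edgeR adjusted p = 6.27e-32). Its UMIs were concentrated: 9 of 625 members held 66.5% of them at P6 and 1 of 130 held 85.4% at P11. Nlgn2, a short gene of 14.7 kb in the same list that encodes a postsynaptic adhesion protein, was lower (61.5, 35.0 and 14.6 CPM against 83.3, 52.8 and 50.8 CPM). Vesicle release genes were divided, with 8 higher and 17 lower of 34 (median -0.45), or 12 higher and 9 lower when scaled by total UMIs. With the main scaling that is 23.5% and 50%, against 16.1% and 24.6% of all genes tested. Sv2b, 1 of the 8 higher, did not pass without the members holding UMIs of the 75 markers (edgeR adjusted p = 0.0656). Vamp2, the synaptobrevin of synaptic vesicles, had 196, 140.1 and 117 CPM against 377, 343 and 439 CPM.

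Splicing and nuclear speckle proteins were higher in 18 of 46 cases and lower in 1, Elavl3, with a median of 0.28. That is 39.1% and 2.17%, against 16.1% and 24.6% of all genes tested. The list had a median span of 32.2 kb, and of protein-coding genes of 30 to 100 kb and at least 20 CPM 18.2% were higher and 23.7% lower. Paxbp1 had 99.5, 148.8 and 111 CPM against 35.3, 21.4 and 24.7 CPM (log2 fold change 1.74, SE 0.18, edgeR adjusted p = 5.91e-20), with UMIs in 146 of 625, 42 of 134 and 32 of 130 members. Clk4, a kinase of splicing factors, had 52.3, 73.0 and 84.9 CPM against 25.7, 20.8 and 23.9 CPM. Small nucleolar RNA host genes, which are noncoding but mostly short, were called higher by edgeR in 0 and lower in 4 of 13 cases (median -0.43). The 30.8% lower is near the 24.6% over all genes tested. Of long noncoding RNA genes under 10 kb and of at least 20 CPM, 37.3% were higher and 38.6% lower. At an unadjusted p under 0.05 edgeR had 0 higher and 5 lower. The list leaves out Snhg11 and Snhg14, which stand among the nuclear-retained transcripts and were both higher. Snhg14, with a span of 667.8 kb, had a log2 fold change of 1.08 (edgeR adjusted p = 2.9e-07). Epb41l4aos, 1 of the 4 lower genes, did not pass the test without the members holding UMIs of the 75 markers (edgeR adjusted p = 0.0524).

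**Figure D5:**
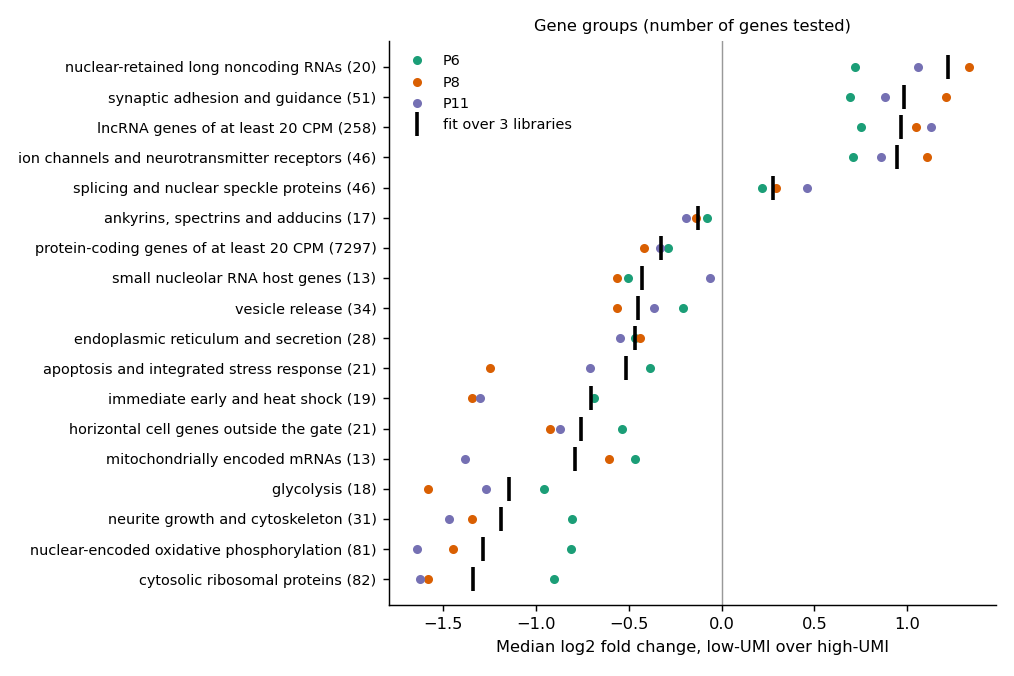
Median log2 fold change of members over high-UMI barcodes (x axis) for each gene group, with the number of genes tested in parentheses; coloured points are libraries, for which a prior count of 2 was added, and black bars the fit over all 3. Ribosomal protein genes have the lowest fitted median (-1.34) and the nuclear-retained list the highest (1.22).

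No gene of the stress lists passed the test as higher, which is near the share among short genes. Over all genes tested 16.1% were higher. Of protein-coding genes of at least 20 CPM, 2.19% under 10 kb and 5.15% of 10 to 30 kb were higher. The 2 lists had median spans of 4.24 and 9.81 kb, and held 27 and 26 genes before the filter on counts. Whether stress differed was not tested. Of 19 immediate early and heat shock genes edgeR called 0 higher and 9 lower (median -0.70), and of 21 genes of apoptosis and the integrated stress response 0 higher and 7 lower (median -0.51). At an unadjusted p under 0.05 edgeR still had 0 higher in each list, and DESeq2 also called 0. Hsp90ab1, an abundant chaperone, had 1328, 1275 and 995 CPM in the members against 2506, 2418 and 2118 CPM. The early gene Fos had 4, 0 and 1 UMIs in the members and Cdkn1a, a target of p53, had 1, 0 and 0, so a difference in them was not detectable at this depth. Of 28 genes of the endoplasmic reticulum and secretion (median span 13.3 kb) edgeR called 0 higher, also unadjusted and with DESeq2. It called 13 lower (median -0.47), or 6 lower with scaling by total UMIs.

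Ankyrins anchor membrane proteins to the spectrin skeleton. Ank2 had 2584, 2332 and 3115 CPM in the members against 1974, 1429 and 2116 CPM, and its log2 fold change of 0.21 (SE 0.23) did not pass the test (edgeR adjusted p = 0.486). Ank3 had 1086, 487 and 568 CPM against 540.4, 197.6 and 277 CPM and was higher by 0.78 (SE 0.20, edgeR adjusted p = 0.000438), or with an adjusted p of 0.0619 without P8. Whether Ank2 and Ank3 differ from each other in this was not tested. Their spans are 578 and 629 kb, and 56.6% of protein-coding genes of at least 100 kb and 20 CPM were higher (median 0.56). Whether either differs from other genes of like span was not tested. Ank1 had 15, 0 and 0 UMIs in the members. Of the 17 ankyrin, spectrin and adducin genes 4 were higher and 4 lower, with a median of -0.13 that changed sign with the scaling. That is 23.5% each way, against 16.1% higher and 24.6% lower over all genes tested. Of its 4 higher genes, Epb41l2 (13, 6 and 3 UMIs in the members) and Epb41 no longer passed the test without the members holding UMIs of the 75 markers (edgeR adjusted p = 0.883 and 0.0894). Of its 4 lower genes, Tmod2 did not pass in that setting either (log2 fold change -0.46, edgeR adjusted p = 0.0682), nor without P11 (0.134) or without P8 (0.0529). Dmtn did not pass without P11 (edgeR adjusted p = 0.110) or without P8 (0.0631).

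Of the 21 horizontal cell genes outside the gate that were tested, 4 were higher and 11 lower (median -0.76). That is 19.0% and 52.4%, against 16.1% and 24.6% of all genes tested. The list had a median span of 22.4 kb, and 58.2% of protein-coding genes of 10 to 30 kb and at least 20 CPM were lower (median -0.64). Whether the list differs from other genes of like span was not tested. Isl1, counted among the 4 and shared with the bipolar list, had UMIs in 11, 1 and 1 members and did not pass without the members holding UMIs of the 75 markers (edgeR adjusted p = 0.477). Calb1 had 419.8, 925 and 1531 CPM in the members at P6, P8 and P11, against 708, 1724 and 2964 CPM in the high-UMI barcodes. Slc4a3 had 693, 1550 and 4436 CPM against 505, 839 and 2147 CPM, with a log2 fold change of 0.46 that did not pass the test. Sncg, encoding gamma-synuclein, was lower, with 393, 382 and 143.5 CPM against 742, 908 and 554 CPM. Megf11, a receptor of horizontal cell mosaic spacing with a span of 324 kb, was higher, with 1148, 741 and 1034 CPM against 599, 289.6 and 483 CPM (log2 fold change 0.79, edgeR adjusted p = 0.000438, and 0.0769 without P8).

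Age differences could be compared for 4112 genes of at least 50 CPM in the high-UMI barcodes at P6 or P11 and at least 10 UMIs in the members of those libraries. Of these, 275 differed at least 2-fold between P11 and P6 in the high-UMI barcodes, and 273 (99.3%) of them differed in the same direction in the members. With 1 library per age no test was made, and what the 2 sets of barcodes share includes their library. Mgarp had 116.7, 1725 and 2931 CPM at P6, P8 and P11 in the members. Filip1l, a filamin-interacting protein, had 1008, 385 and 55.6 CPM, and the receptor kinase Alk 534, 181 and 29.3 CPM. The peptide gene Pyy had 172 and 40.9 CPM at P6 and P8, and 0 of 341564 UMIs at P11, at least 19.6-fold below P6 when set against a floor of 3 counts (8.78 CPM).

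The 12 genes with the highest fold change, chosen among 894 higher genes of at least 50 CPM, were headed by genes of other retinal cells. Pde6g, Pdc, Gngt1 and Sag encode proteins of rod phototransduction and were higher by 4.65 to 5.23 on the log2 scale. Pde6g had 14.4, 102 and 84.9 CPM in the members against 1.16, 0.991 and 1.07 CPM (log2 fold change 5.23, SE 0.39, edgeR adjusted p = 4.03e-38). UMIs of Pde6g lay in 7 of 625, 7 of 134 and 4 of 130 members. Without the members that held UMIs of the 75 markers, Pde6g had a log2 fold change of 1.39 (edgeR adjusted p = 0.215) and Sag of 0.77 (0.389); Pdc and Gngt1 were among the markers that set this filter.

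Other genes among the 12 highest were spread over more members. Nr6a1, a nuclear receptor gene on chr2, had 230.6, 119.7 and 152 CPM against 56.1, 11.2 and 16.7 CPM (log2 fold change 2.42, SE 0.18, edgeR adjusted p = 1.49e-36), in 238 of 625, 29 of 134 and 36 of 130 members. Fgfr2, a growth factor receptor, had 780, 455 and 527 CPM against 244, 104 and 82.5 CPM, in 492, 68 and 81 members. Its annotated span of 2961 kb overlaps 22 other tested genes, so its reads may be assigned with less certainty. Spef2 (105, 35.0 and 32.2 CPM against 22.1, 6.61 and 2.96 CPM) and Rpgrip1 (66.7, 64.2 and 55.6 CPM against 11.4, 12.8 and 11.8 CPM), genes of the flagellum and the photoreceptor cilium, were higher by 2.18 and 2.11.

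Lrtm1 and P2ry14, also among the 12 highest, lie inside longer genes on the opposite strand. Lrtm1 had 150.1, 40.9 and 46.8 CPM against 12.1, 2.23 and 2.01 CPM (log2 fold change 3.64, SE 0.23, edgeR adjusted p = 3.31e-53), with UMIs in 179 of 625, 13 of 134 and 16 of 130 members. It lies at chr14 within Cacna2d3, a calcium channel subunit gene of 817 kb, which had 2542, 1497 and 1795 CPM in the members against 1335, 505 and 668 CPM. P2ry14, a nucleotide receptor gene, had 169.7, 137 and 316 CPM against 31.99, 23.0 and 75.1 CPM (log2 fold change 2.02, SE 0.18, edgeR adjusted p = 1.64e-27). It lies within Med12l, as does the microglia marker P2ry12, and Med12l had 227, 228 and 275 CPM against 130.2, 58.1 and 100.4 CPM. Lrtm1 is also a bipolar marker and gave 261 of the 689 bipolar UMIs at P6. The labels do not say how strand was used in counting, so RNA of these genes and of their host genes cannot be told apart. Of all genes tested 4.69% lie inside a tested gene on the opposite strand. Of the 894 higher genes from which the 12 were drawn, 3 (0.336%) do, and 2 of these are among the 12.

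The 12 lowest genes, of 2119 lower genes of at least 50 CPM, all had spans under 10 kb. They were Ctxn1, Mea1, B9d2, Gapdh, Cited2, Selenow, Cfl1, Bod1, Slc25a39, Naa38, Thrsp and Med28, with log2 fold changes of -2.16 to -1.66. Ctxn1, a neuronal membrane protein, had 173, 52.5 and 14.6 CPM in the members against 391.6, 258 and 176 CPM (log2 fold change -2.16, SE 0.22, edgeR adjusted p = 2.56e-20). Selenow, a selenoprotein, had 473, 409 and 337 CPM against 925, 1289 and 1184 CPM. As the ranking required, the members were below the high-UMI barcodes in all 3 libraries for each of them.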

How the data were processed

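Per the labels' protocols, cells were released with papain, sorted and captured with the 10x Genomics 3' chemistry. The authors deposited raw UMI counts of every feature in every barcode. The submitters' processing notes name Cell Ranger 7.1.0 and mm10, and for the annotation release, intron reads and strand the setting is not given in the sources used here. Libraries held 9896, 4635 and 5517 barcodes and 87939202, 65546590 and 105561999 UMIs, and no doublet caller was run.

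Spans and gene types came from GENCODE vM21 (32235 of 32285 features matched by gene ID), and 78 features with shared symbols were not named. Counts of members and of high-UMI barcodes were summed per library and tested with edgeR 4.0.16 (R 4.3.3): quasi-likelihood test, library as block, TMM scaling, filterByExpr, Benjamini-Hochberg adjustment over 14459 genes. The 3 gate genes and 13 mitochondrial genes were fitted but not called. SE is the fold change over the root of the F statistic, and printed CPM is per 1000000 total UMIs. The fit was also run on simulated counts, with both sides drawn from the high-UMI profiles at a fixed dispersion (13978 genes tested). In them 100 genes of at least 20 CPM were changed by 1 and 100 by 2 on the log2 scale, as many up as down. It recovered 82% and 98% of these, with 5 false calls. The simulation held no wider shift in composition between the sides, so these rates do not carry over to the real comparison.

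The members and gene lists were chosen with earlier results of these data known. The named genes are the 12 highest and 12 lowest called genes of at least 50 CPM on the higher side with 1 sign in all libraries, the extremes of each list, the nuclear-retained and mitochondrial lists, and Ank1, Ank2 and Ank3, apart from 1 highest gene that is not reported here. Left out of the ranking were gate, mitochondrial, ribosomal, hemoglobin, sex-linked marker and provisional symbols. Alternatives covered scaling, tool (DESeq2 1.42.0), filters, gates, thinning, the block and each library left out. The setting without members holding UMIs of other cell types' markers was chosen after seeing the data.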

Additional observations from a re-analysis of the deposited data

How the results depend on the processing

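The number higher (2329) was 1205 with a UMI of all 3 gate genes required and 1144 without the library block, and 1679 to 1807 when 1 library was left out. The number lower (3560) was 2092 with all 3 gate genes, 2113 with total UMIs, 2074 with DESeq2, 2249 with a minimum of 20 CPM and 2126 without the block, and 2507 to 2757 when 1 library was left out. DESeq2 called 2325 higher. The mean log2 ratio of the noncoding share without Malat1 (0.87) was 0.78 with all 3 gate genes, 0.93 with at most 3000 UMIs and 0.77 with no mitochondrial limit. That last setting turned the mean log2 ratio of the mitochondrial share from -0.58 to 0.70. It also turned the median of the 13 mitochondrial genes (0.51) and the values of mt-Atp6 (0.58), mt-Co1 (0.44), mt-Co2 (0.43), mt-Co3 (0.51), mt-Cytb (0.195), mt-Nd1 (0.18), mt-Nd2 (0.59), mt-Nd3 (0.36) and mt-Nd4 (0.32), since the limit itself bounds them. With no filter on low counts the median of long noncoding genes was -0.59, and without Malat1 also -0.59, many of them at 0 in the members. Total UMIs turned the protein-coding median to 0.10. The ankyrin, spectrin and adducin median was 0.0105 with at most 3000 UMIs, 0.00351 after thinning, 0.0448 with median-of-ratios, 0.198 with total UMIs, 0.0445 with DESeq2 and 0.0711 with 20 CPM. Dscaml1 (4.25) was -0.13 without the members holding other cell types' markers. Of the named genes, 8 lost their call without P11, 6 without P6 and 11 without P8. The cause was not tested. Depth limits single genes most at P11, where 3 UMIs in the members are 8.78 CPM.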
